A study of Homo sapiens with 6 samples.

Results

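LDHA and 43 other genes of glucose breakdown and of the response to low oxygen were examined in EJ cells, an established human bladder cancer line, after knockdown of STIL, which encodes a centriole assembly factor. The 44 genes were selected on a result of this same comparison, because LDHA was among the largest falls, and their symbols matched 44 of the 15953 genes measured. The fall of LDHA and the count of lower members are therefore given as a description, with no p-value and no claim that the set stands apart from other genes.

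Bulk RNA-seq of 6 libraries was compared, 3 of EJ cells carrying a stable lentiviral STIL-knockdown construct (shSTIL) and 3 of EJ cells carrying the negative control construct (shNC). Both groups were the same parental line, were infected with lentivirus and were grown in RPMI-1640 with fetal bovine serum, and the oxygen level was not given in the sources used here. The column headings of the deposited tables say siSTIL and siNC where the sample labels and the methods describe stable hairpin lines; siRNA oligos against STIL are listed for the study, but which sequence the lentiviral construct carries, and how many constructs lie behind the shSTIL libraries, was not given in the sources used here. The contrast rests on this pair of lines. Nothing stated that the replicates came from separate cultures, so standard errors and calls measure the spread between these libraries, which may be technical. Values are log2 CPM, the reads of a gene plus a small prior count, scaled to the TMM-adjusted library total, on a log2 scale, and a gene was called when limma gave a Benjamini-Hochberg adjusted p under 0.01 over all 15953 genes.

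Glycolysis splits glucose into pyruvate through a chain of cytosolic enzymes, and lactate dehydrogenase then reduces pyruvate to lactate, which regenerates the NAD+ that the chain needs. Tumour cells, bladder cancer cells among them, often run this route in the presence of oxygen. When oxygen falls, the prolyl hydroxylases stop marking the HIF alpha subunits for degradation, and HIF binds short DNA elements and raises transcription of many glycolytic genes, LDHA included, together with genes of angiogenesis, pH control, mitophagy and collagen maturation.

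STIL itself was read at 5.98, 6.10 and 6.01 log2 CPM in the shNC libraries and at 4.05, 4.06 and 4.01 in the shSTIL libraries, so 25.2% of the control level was left. Total reads per library were between 16214800 and 16901600. Of all 15953 genes, 47.1% were called, 23.5% higher and 23.6% lower in shSTIL, and the groups were without overlap in 60.3%. Epithelial keratins were present, with KRT18 at a mean of 9.32 log2 CPM in shNC, KRT8 lower by -0.70 and KRT7 higher by 0.49 in shSTIL, whereas CDH1 was at -2.06 and the 7 measured markers of differentiated urothelium, of which 2 were called lower (UPK1B and FOXA1) and 1 higher (PPARG), summed to 31.6 to 33.5 CPM in shNC and 31.9 to 32.9 CPM in shSTIL. The 4 mesenchymal markers summed to 1550.3 to 1573 CPM in shNC and 981 to 1003 CPM in shSTIL, with FN1 lower by -1.19 and VIM by -0.68 on the log2 scale. The 2 measured leukocyte markers summed to 10.8 to 11.9 CPM in shNC and 13.1 to 15.0 CPM in shSTIL, with neither called. Nearly all of this was CD68, with 173 to 250 reads per library, where CD14 had 1 to 4. The listed markers PTPRC and CD3E were not among the genes measured. The 3 endothelial markers summed to under 1 CPM in every library. The part of these shifts in the results for the members was not tested.

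Sequence upstream of 4 members is shown first, because HIF acts through the core letters ACGTG or GCGTG. Each run is the RefSeq promoter window of GRCh38.p14, 250 bases before to 50 bases after the start that RefSeq gives the gene, on the strand of the gene, and capitals mark ACGTG or GCGTG on either strand. LDHA and PGK1 are shown as members that fell and hold several ACGTG matches. PFKFB4 is shown as one that fell without an ACGTG match, and EPAS1 as the member with the largest rise. The windows lie at chr11:18394313-18394612 on the plus strand for LDHA, chrX:78103998-78104297 on the plus strand for PGK1, chr3:48556754-48557053 on the minus strand for PFKFB4 and chr2:46297157-46297456 on the plus strand for EPAS1. These starts can differ from those of the GENCODE gene spans, which begin at the outermost annotated transcript.
LDHA: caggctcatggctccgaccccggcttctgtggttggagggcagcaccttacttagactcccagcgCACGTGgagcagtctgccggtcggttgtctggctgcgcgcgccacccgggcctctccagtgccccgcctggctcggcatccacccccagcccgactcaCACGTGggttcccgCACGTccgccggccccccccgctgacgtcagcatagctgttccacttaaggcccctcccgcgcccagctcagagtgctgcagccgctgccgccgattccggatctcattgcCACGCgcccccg
PGK1: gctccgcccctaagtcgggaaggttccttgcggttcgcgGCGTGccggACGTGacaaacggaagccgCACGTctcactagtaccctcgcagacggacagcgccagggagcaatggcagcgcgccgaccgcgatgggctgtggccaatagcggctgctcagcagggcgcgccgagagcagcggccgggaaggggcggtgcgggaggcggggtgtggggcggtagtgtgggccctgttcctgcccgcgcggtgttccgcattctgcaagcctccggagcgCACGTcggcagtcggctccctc
PFKFB4: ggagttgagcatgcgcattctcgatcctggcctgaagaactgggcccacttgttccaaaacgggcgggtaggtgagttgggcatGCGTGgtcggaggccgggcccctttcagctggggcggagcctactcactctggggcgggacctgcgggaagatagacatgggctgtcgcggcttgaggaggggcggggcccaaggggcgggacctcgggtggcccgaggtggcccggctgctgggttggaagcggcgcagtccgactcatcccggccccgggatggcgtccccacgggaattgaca
EPAS1: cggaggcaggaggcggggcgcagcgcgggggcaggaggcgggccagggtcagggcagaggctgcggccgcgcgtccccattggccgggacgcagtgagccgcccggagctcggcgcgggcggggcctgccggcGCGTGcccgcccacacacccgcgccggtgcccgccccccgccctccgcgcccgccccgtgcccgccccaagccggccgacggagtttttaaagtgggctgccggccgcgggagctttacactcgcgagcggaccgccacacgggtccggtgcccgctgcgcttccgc

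The LDHA window held 5 ACGTG matches, of which 4 came from the palindrome CACGTG at 2 places, read on both strands. The PGK1 window held 3 ACGTG matches and the windows of PFKFB4 and EPAS1 held 0. The windows of LDHA, PGK1, PFKFB4 and EPAS1 each held 1 GCGTG match. Promoter windows were found for 38 of the 44 members. ACGTG occurred in 15 of these 38 windows (39.5%), against 25.0% of the 12621 windows of genes in the files and 21.4% of all 35116 windows in the table. GCGTG occurred in 19 of the 38, against 47.7% of the windows of genes in the files. Among the members with a window, ACGTG was present in 13 of 32 called lower, 1 of 3 called higher and 1 of 3 not called. The members were listed as glycolysis and hypoxia response genes, many of which HIF is known to raise, so nothing is read from their share. A match describes letters in this window and says nothing of binding.

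In total 38 of the 44 members were called, 34 of them lower and 4 higher in shSTIL, beside the 47.1% of all genes called; since LDHA chose the set in this contrast, nothing is read from these counts. The members that rose were PFKFB2, EPAS1, EGLN1 and ADM. The 6 members not called were SLC2A3, HK2, SLC16A1, HIF1A, EGLN3 and VEGFA. Groups did not overlap in 40 of the 44 members, beside 60.3% of all genes. The median log2 difference was -0.71 over the members, -0.71 over the 43 without LDHA, and 0.01 over all genes. No filter on low values was applied; 38 members had a mean of at least 1 log2 CPM, and of the 6 members under it 4 were called (PDK4, CA9, CA12 and ANKRD37), where calls of this fit are less reliable. In the bulk RNA of these lines, fewer cells that make a transcript and less of it per cell cannot be told apart.

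**Figure D1:**
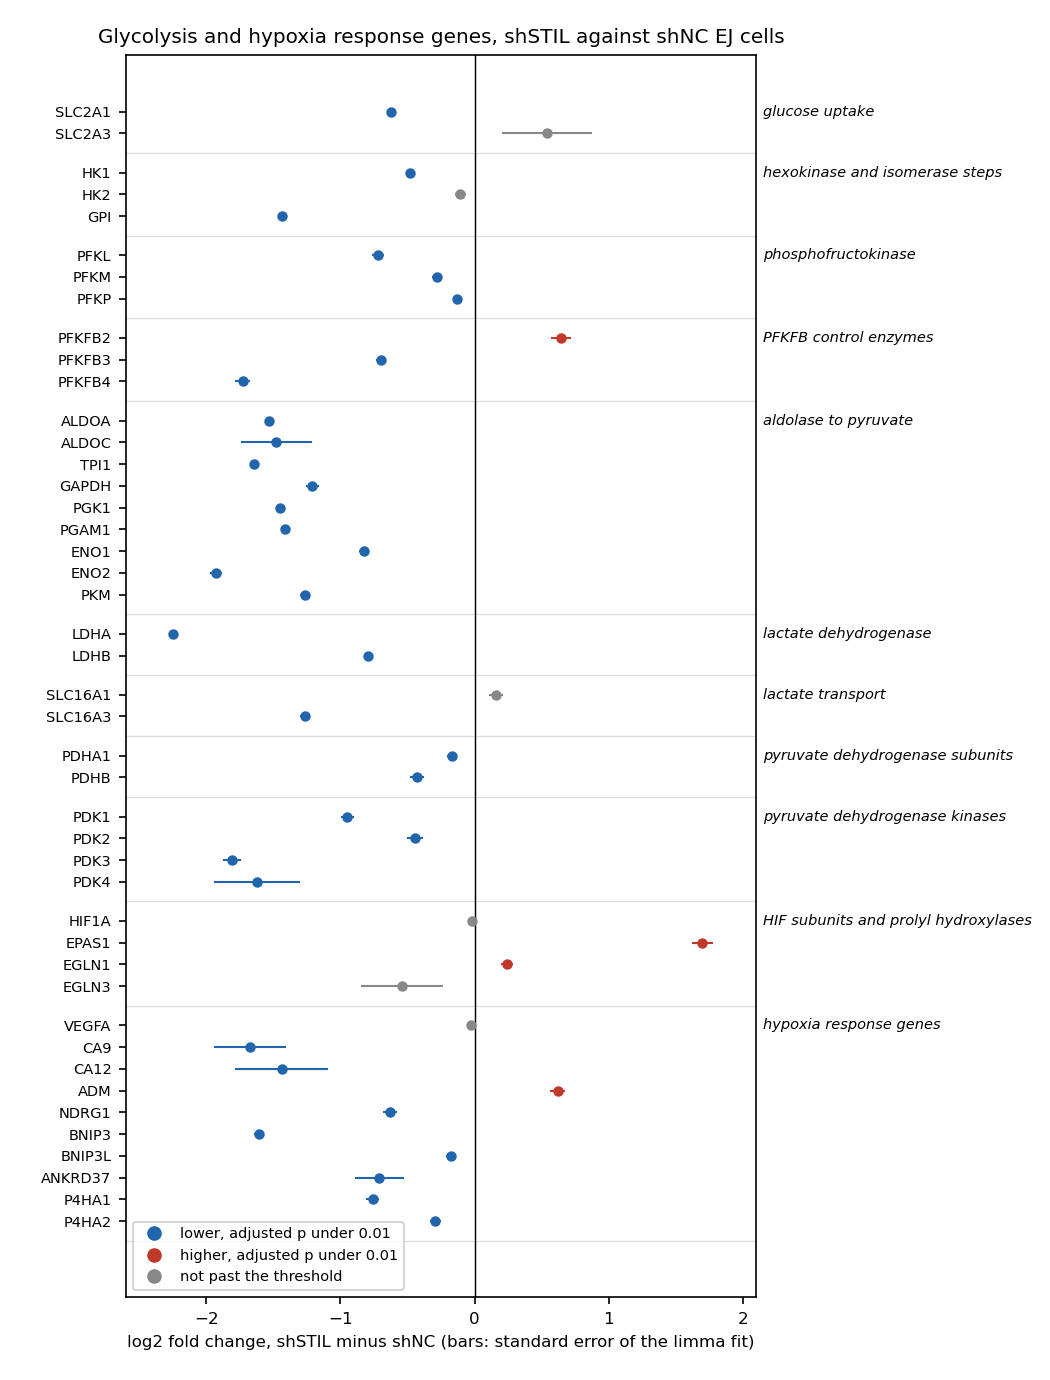
Log2 fold change of each member, shSTIL minus shNC, on the horizontal axis, with members in pathway order on the vertical axis; points are the limma estimates from 3 libraries a group, bars are their standard errors, and colours give the call at an adjusted p under 0.01. LDHA lies farthest left at -2.25 and EPAS1 farthest right at 1.70; wide bars belong to ALDOC and to the members with few reads.

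LDHA, the lactate dehydrogenase subunit that favours lactate formation, showed the largest fall among the 38 members with a mean of at least 1 log2 CPM; the fitted differences of the members with fewer reads depend on the prior count. The gene spans chr11:18394388-18408425 of GRCh38, plus strand. LDHA was at 11.32, 11.33 and 11.37 log2 CPM in the shNC libraries and at 9.09, 9.12 and 9.06 in the shSTIL libraries. The 3 shSTIL libraries were all lower than every control by more than 2 log2 units, and the libraries of each group lay within 0.06 of each other. LDHA fell by 2.25 on the log2 scale (SE 0.03, n = 3 a group), or 4.75-fold, and ranked 19 among the falls of all genes. LDHA took 0.250%, 0.255% and 0.259% of all reads in the shNC libraries and 0.0551%, 0.0566% and 0.0541% in the shSTIL libraries.

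LDHB, the subunit more common in oxidative tissues, stood at 9.78, 9.85 and 9.79 log2 CPM in shNC and at 9.02, 9.01 and 9.01 in shSTIL. It fell by 0.79 (SE 0.03), a smaller drop than that of LDHA. Per kilobase of transcript, LDHA made up 60.9% ± 0.778 (SD, n = 3) of the reads of the 2 genes in shNC and 36.2% ± 0.454 in shSTIL. The ratio of LDHA to LDHB per transcript length was 1.56, 1.51 and 1.61 in the shNC libraries and 0.567, 0.579 and 0.557 in the shSTIL libraries. LDHA thus passed from the higher to the lower of the pair on this scale. Per coding length, which leaves out the untranslated ends, the ratio went from at least 2.81 in each shNC library to 1.06, 1.08 and 1.04 in the shSTIL libraries, so there LDHA stayed the higher and which of the pair led in shSTIL depended on the length used. The related genes LDHC, LDHAL6A and LDHAL6B were near absent, with 0 to 1, 0 to 3 and 0 to 2 reads in any library. LDHD, not a member, had 34, 29 and 39 reads in shNC and 18, 20 and 16 in shSTIL. It was called lower at -0.92 (SE 0.20), with a mean of 0.69 log2 CPM, a level where calls of this fit are less reliable. The GENCODE annotation lists 6 pseudogenes of LDHA and 3 of LDHB, none of them in the files, so reads that fit a copy were assigned to the parent or left out by the authors' estimation.

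Glucose enters the cell through the GLUT transporters. SLC2A1, the main transporter GLUT1, was at 7.20, 7.23 and 7.23 log2 CPM in shNC and at 6.56, 6.61 and 6.63 in shSTIL, a fall of 0.62 (SE 0.03) without overlap. SLC2A3, the neuronal-type transporter GLUT3, had 0, 3 and 1 reads in shNC and 2, 3 and 3 in shSTIL, too few for a fold. Its near copy SLC2A14 had 0 to 1 read per library.

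The 15 enzymes of the chain from hexokinase to pyruvate kinase are taken next, and 14 of them were called lower, with a median of -1.27, beside 23.6% of all genes called lower and a median of 0.01. Hexokinase traps glucose as glucose 6-phosphate, and its ubiquitous form HK1 fell by 0.48 (SE 0.03). The inducible form HK2 was not called, at a log2 difference of -0.10 (SE 0.04). GPI, the isomerase that makes fructose 6-phosphate, was at 9.29, 9.26 and 9.29 in shNC and at 7.87, 7.82 and 7.83 in shSTIL, a fall of 1.44 (SE 0.03). Among these first steps GPI thus had the largest difference and HK2 the smallest.

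Phosphofructokinase commits the sugar to glycolysis, and its 3 subunit genes moved by unequal amounts. The liver type PFKL was at 8.52, 8.34 and 8.46 log2 CPM in shNC and at 7.70, 7.75 and 7.71 in shSTIL, a fall of 0.72 (SE 0.04). The muscle type PFKM fell by 0.28 (SE 0.04). The platelet type PFKP fell by 0.13 (SE 0.03), a call lost on leaving out any of the shSTIL libraries. PFKP rose as a share of the 3 per transcript length, from 43.1% ± 0.913 to 51.7% ± 0.512 (SD, n = 3), and became the most abundant of them.

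The PFKFB enzymes make and remove fructose 2,6-bisphosphate, the activator of phosphofructokinase, and they moved in opposite directions. PFKFB4, a hypoxia-inducible form, was at 5.68, 5.62 and 5.65 in shNC and at 3.95, 3.95 and 3.87 in shSTIL, a fall of 1.73 (SE 0.05), or 3.32-fold. PFKFB3, the form with the highest kinase activity, was at 7.26, 7.23 and 7.24 and at 6.56, 6.47 and 6.61, a fall of 0.70 (SE 0.04). PFKFB2, the heart form, was at 4.26, 4.23 and 4.08 and at 4.97, 4.75 and 4.80, a rise of 0.65 (SE 0.07). The groups did not overlap in any of the 3 genes, beside 60.3% of all genes without overlap. Per transcript length, PFKFB2 went from 5.09% ± 0.308 to 13.9% ± 0.855 of the family and PFKFB4 from 27.8% ± 0.220 to 14.5% ± 0.828, while PFKFB3 stayed the most abundant at 67.1% and 71.7%.

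All 9 genes from aldolase to pyruvate kinase fell, by 0.83 to 1.93 on the log2 scale. ALDOA, the main aldolase, was at 10.94, 10.85 and 10.90 log2 CPM in shNC and at 9.35, 9.34 and 9.41 in shSTIL, a fall of 1.53 (SE 0.04). TPI1, which interconverts the triose phosphates, was at 10.58, 10.53 and 10.58 and at 8.91, 8.90 and 8.96, a fall of 1.64 (SE 0.03). Both stood over 1 log2 unit lower in each shSTIL library than in any control. ALDOC, the brain-type aldolase, was much less expressed, at 1.83, 1.95 and 1.96 in shNC and at 0.76, -0.29 and 0.82 in shSTIL. It had 55, 61 and 60 reads in shNC and 27, 12 and 28 in shSTIL, and replicate 2 of shSTIL lay apart from the others. ALDOC fell by 1.48 (SE 0.26), and without that library the difference was -1.12 and still called, whereas leaving out any of the other 5 libraries lost the call.

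GAPDH, the dehydrogenase that yields NADH, was at 13.62, 13.50 and 13.58 log2 CPM in shNC and at 12.34, 12.36 and 12.37 in shSTIL, a fall of 1.21 (SE 0.05). It took 1.15% to 1.24% of all reads in the shNC libraries and 0.525% to 0.538% in the shSTIL libraries. Under quantile normalization, which gives each rank the same value in every library, this difference vanished, since GAPDH holds the same rank in all 6 libraries. PGK1, which makes the first ATP, was at 9.60, 9.57 and 9.61 and at 8.15, 8.15 and 8.14, a fall of 1.45 (SE 0.03). PGAM1, the phosphoglycerate mutase, was at 9.85, 9.81 and 9.83 and at 8.41, 8.44 and 8.40, a fall of 1.41 (SE 0.03). The 3 genes of these middle steps thus lay between 2.31-fold and 2.73-fold lower. GAPDH has 62 annotated pseudogenes and PGAM1 has 13, none of them in the files, and the near copy PGAM4 had 3.02 to 20.2 reads in shNC and 2.05 to 3.20 in shSTIL.

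The enolases, which form phosphoenolpyruvate, fell unequally. ENO1, the ubiquitous enolase, was at 11.93, 11.85 and 11.89 log2 CPM in shNC and at 11.06, 11.08 and 11.05 in shSTIL, a fall of 0.83 (SE 0.04). ENO2, the neuronal enolase that hypoxia can induce elsewhere, was at 7.33, 7.29 and 7.27 and at 5.40, 5.27 and 5.44, a fall of 1.93 (SE 0.05). Among the 38 members with a mean of at least 1 log2 CPM, ENO2 thus had the second-largest fall, after LDHA. Its share of the pair per transcript length went from 2.96% ± 0.0664 to 1.40% ± 0.0935 (SD, n = 3). ENO3, which is not among the 44, had 28 to 44 reads in shNC and 40 to 69 in shSTIL. PKM, the pyruvate kinase of most tissues and tumours, was at 11.75, 11.69 and 11.74 and at 10.48, 10.46 and 10.45, a fall of 1.27 (SE 0.03). The gene-level value sums the splice forms of PKM, which were not separated.

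**Figure D2:**
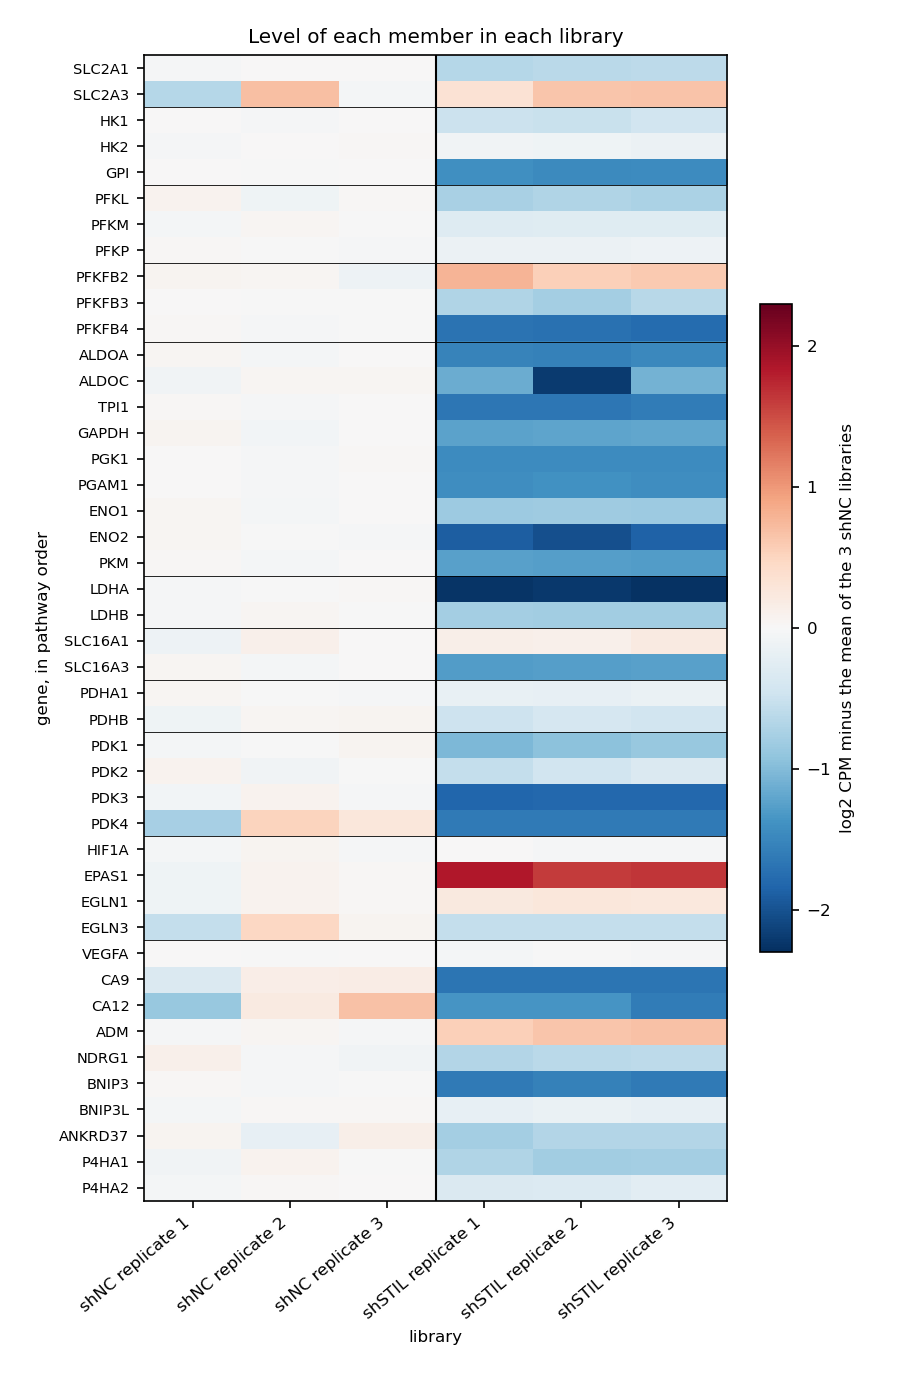
Level of each member (rows, in pathway order) in each of the 6 libraries (columns), as log2 CPM minus the mean of the 3 shNC libraries; blue is below and red above the control mean. The shSTIL columns are blue from GPI to LDHB apart from PFKFB2, with PFKP pale, while EPAS1, PFKFB2 and ADM are red; uneven shNC cells in SLC2A3, PDK4, EGLN3, CA9 and CA12 come from 0 to 21 reads.

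The order of the members by level was compared per kilobase of transcript. GAPDH was first in both groups, at 6475 ± 285 CPM per kilobase in shNC and 2799.8 ± 32.1 in shSTIL (SD, n = 3), followed by ENO1 and PKM. In shNC the neighbours PKM at 1250.1 ± 28.5 and TPI1 at 1230.2 ± 24.1 had overlapping ranges, with PKM the higher within each library. LDHA was sixth in shNC at 1070.3 ± 19.5 and eighth in shSTIL at 225 ± 4.50. These ranks depended on the length used, since in CPM not divided by length LDHA stood above TPI1 and ALDOA in every shNC library. In shSTIL the LDHA value and that of VEGFA, at 229 ± 3.20, lay within their spread. That match held on this scale only: not divided by length, LDHA was at 533.5 to 555.2 CPM and VEGFA at 269.8 to 277.4. The 44 members together took 3.17% ± 0.0607 of all reads in shNC and 1.48% ± 0.0110 in shSTIL, and the 15 enzymes of the chain took 2.59% ± 0.0687 and 1.18% ± 0.00955.

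Lactate leaves the cell through monocarboxylate transporters. SLC16A3, the export form MCT4, was at 8.17, 8.08 and 8.14 log2 CPM in shNC and at 6.84, 6.87 and 6.87 in shSTIL, a fall of 1.27 (SE 0.03). SLC16A1, the widely expressed MCT1, was not called, with a log2 difference of 0.16 (SE 0.05). It was called higher by edgeR on the reads and by limma on genes with a mean of at least 1 log2 CPM. No fit that left out a library called it. The share of SLC16A3 in the pair per transcript length went from 87.6% ± 1.23 to 72.4% ± 0.607 (SD, n = 3), and it remained the more abundant in every library.

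Pyruvate dehydrogenase passes pyruvate on to the mitochondrial cycle, and the PDK kinases switch it off. Its subunit genes were both called lower, with PDHA1 at -0.17 (SE 0.03) and PDHB at -0.43 (SE 0.05). PDK1, the kinase best known as a HIF target, was at 6.27, 6.31 and 6.38 in shNC and at 5.28, 5.37 and 5.45 in shSTIL, a fall of 0.95 (SE 0.05). PDK3 was at 5.08, 5.22 and 5.11 and at 3.31, 3.33 and 3.33, a fall of 1.81 (SE 0.07), the largest among the kinases with a mean of at least 1 log2 CPM. PDK2, the broadly expressed kinase, fell by 0.45 (SE 0.06). Among the kinases PDK2 thus lay close to the subunit PDHB. The call of PDHA1 was lost without shSTIL replicate 1 or 2 and that of PDK2 without shSTIL replicate 2. PDK4, induced in fasting, had 5, 15 and 12 reads in shNC and 2, 2 and 2 in shSTIL, and its call was lost on leaving out any library other than shNC replicate 1. The share of PDK3 among the kinases per transcript length went from 31.6% ± 1.47 to 18.2% ± 0.850 (SD, n = 3), and that of PDK2 from 22.0% ± 1.43 to 33.0% ± 0.648. Per coding length, the shares of PFKP, PFKFB2, PFKFB4, ENO2, SLC16A3, PDK2 and PDK3 differed between the groups in the same direction.

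**Figure D3:**
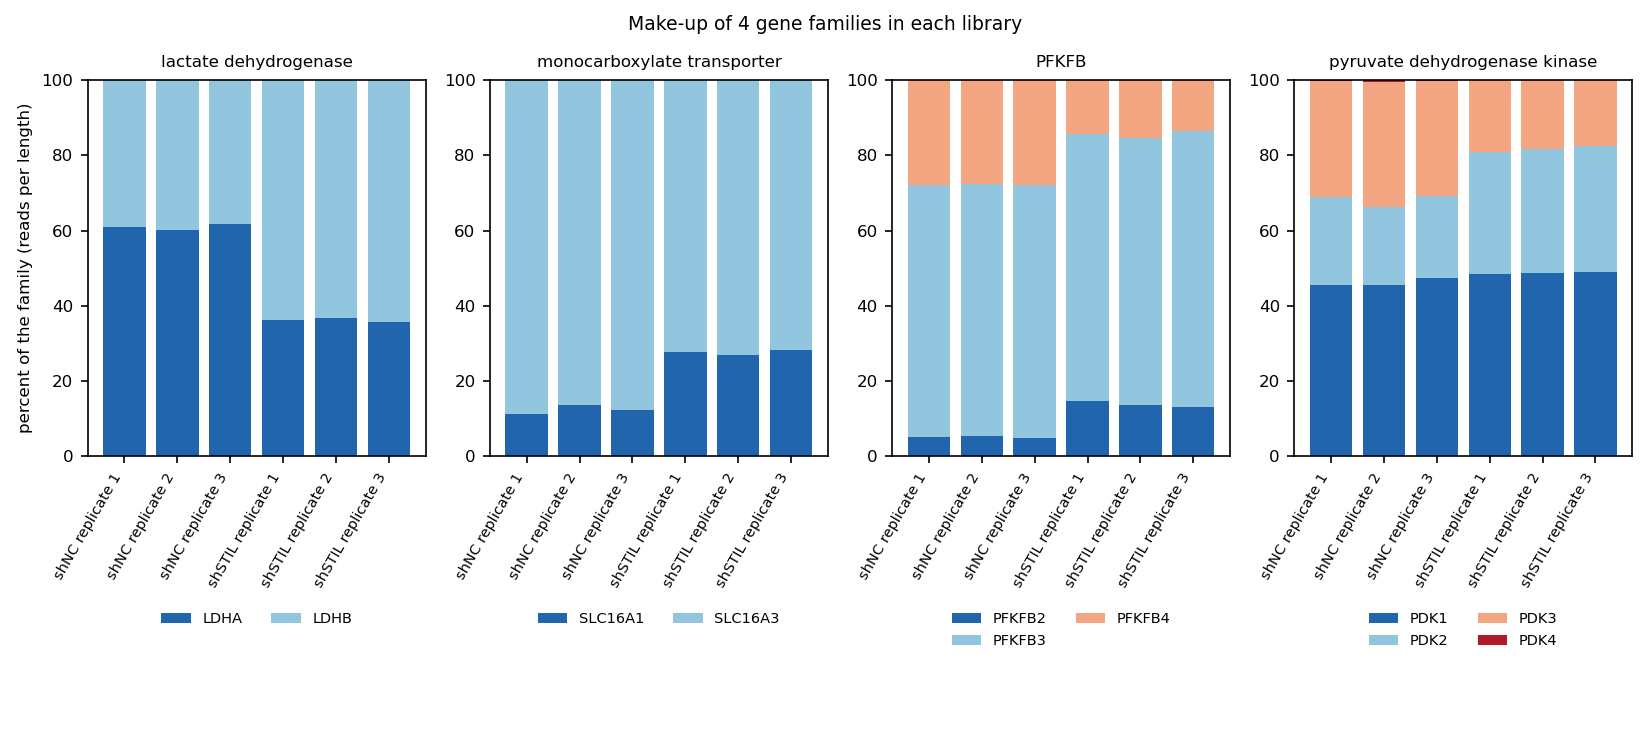
Share of each gene in the reads per transcript length of its family (vertical axis, percent), in each of the 6 libraries (horizontal axis), for lactate dehydrogenase, the monocarboxylate transporters, the PFKFB enzymes and the pyruvate dehydrogenase kinases. LDHA drops from 60.9% to 36.2%, SLC16A1 and PFKFB2 take larger shares in the 3 shSTIL libraries, and PDK3 and PFKFB4 smaller ones.

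Of the 4 members of the oxygen-sensing system, 2 were called higher and 0 lower, beside 23.5% and 23.6% of all genes. HIF1A, the main hypoxia-inducible alpha subunit, was at 8.38, 8.49 and 8.40 log2 CPM in shNC and at 8.42, 8.39 and 8.40 in shSTIL. These groups overlapped, and the difference was -0.02 (SE 0.03) with a sign that turned on leaving out replicate 2 of shNC. EPAS1, which encodes the HIF-2 alpha subunit, was at 3.42, 3.61 and 3.55 and at 5.38, 5.14 and 5.17, a rise of 1.70 (SE 0.08), or 3.25-fold, the largest of the members. Even so, EPAS1 made up only 7.74% ± 0.577 of both alpha subunits per transcript length in shSTIL, from 2.47% ± 0.0962 in shNC (SD, n = 3). HIF activity is set largely by the stability of its protein, which RNA-seq does not measure.

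The prolyl hydroxylase EGLN1 was at 5.65, 5.82 and 5.77 log2 CPM in shNC and at 5.98, 6.01 and 5.99 in shSTIL. The groups did not overlap, with a rise of 0.24 (SE 0.05) whose call was lost without shNC replicate 3 or any of the shSTIL libraries. EGLN3, the hydroxylase that HIF induces most in many cells, had 0, 2 and 1 reads in shNC and 0 in each shSTIL library, so no difference was detectable at this depth.

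Of the 10 hypoxia response genes 8 were called lower, 1 higher and 1 was not called, with a median of -0.67, beside 23.6% of all genes called lower. VEGFA, the angiogenic growth factor, was at 8.13, 8.11 and 8.13 log2 CPM in shNC and at 8.08, 8.12 and 8.10 in shSTIL, overlapping, with a difference of -0.03 (SE 0.03). ADM, the vasodilator peptide adrenomedullin, was at 4.52, 4.61 and 4.53 and at 5.10, 5.20 and 5.23, a rise of 0.62 (SE 0.06). Neither secreted factor followed LDHA. BNIP3, a mitophagy receptor, was at 7.44, 7.38 and 7.40 and at 5.78, 5.85 and 5.78, a fall of 1.61 (SE 0.04). Its relative BNIP3L fell by 0.18 (SE 0.03), a call lost without shSTIL replicate 3. The pair of mitophagy receptors thus differed in size of change; BNIP3 has 39 annotated pseudogenes, none of them in the files.

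P4HA1, a catalytic subunit of the collagen prolyl hydroxylase, was at 6.36, 6.52 and 6.42 log2 CPM in shNC and at 5.74, 5.64 and 5.65 in shSTIL, a fall of 0.76 (SE 0.05). The alternative subunit P4HA2 fell by 0.29 (SE 0.04). NDRG1, a stress-response protein, was at 6.13, 5.98 and 5.94 and at 5.34, 5.41 and 5.42, a fall of 0.63 (SE 0.05). In all 3 genes every shSTIL library was lower than every control, where 60.3% of all genes had groups without overlap in either direction. ANKRD37, a small hypoxia-inducible ankyrin-repeat protein, had 34.0 to 42.3 reads in shNC and 23.1 to 25.0 in shSTIL, a fall of 0.71 (SE 0.19) not called by DESeq2, with a replicate block or on leaving out any library other than shNC replicate 2. The carbonic anhydrases that control pH outside the cell were scarcely expressed. CA9 had 3, 5 and 5 reads in shNC and 0 in each shSTIL library, and CA12 had 6, 15 and 21 reads and 4, 4 and 3. Both were called lower, CA12 only in the full set and without shNC replicate 1 among the fits that leave out a library, and no fold is given from so few reads.

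**Figure D4:**
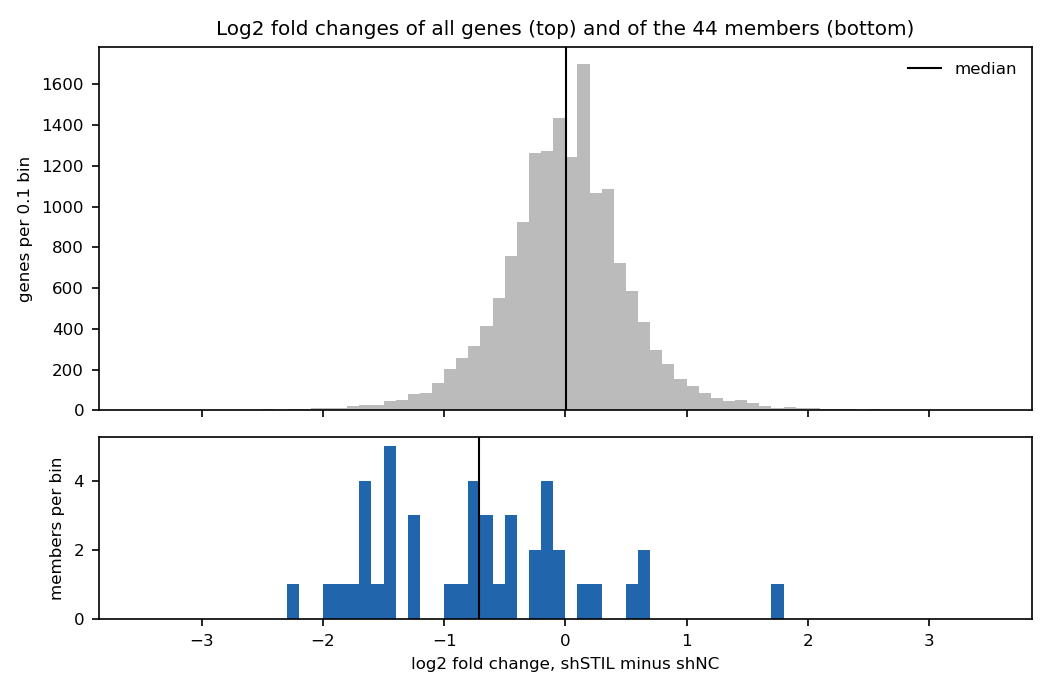
Number of genes per bin of 0.1 in log2 fold change, shSTIL minus shNC, for all 15953 genes (top) and for the 44 members (bottom), with the median of each as a vertical line. The median of all genes is at 0.01 and that of the members at -0.71, and the members spread from -2.25 to 1.70.

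Calls were also counted by level, as a description only, since LDHA chose the set in this contrast. Of the 14 members with a mean of at least 8 log2 CPM, 12 were called lower and 0 higher, with a median of -1.24. Among all 637 genes at that level, 37.0% were called lower and 35.6% higher, with a median of 0.01. Of the 23 members between 4 and 8 log2 CPM, 17 were called lower and 4 higher, with a median of -0.45, beside 33.0% lower and 33.9% higher of all 8031 genes at that level.

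Neighbouring pathways were read from lists of other genes, whose counts stand beside the 23.6% of all genes called lower and the 23.5% called higher. Of 35 other genes of glycolysis and pyruvate use, 11 were called lower and 8 higher, with a median of 0.10; BPGM, which makes 2,3-bisphosphoglycerate, rose by 0.62 (SE 0.05) and ADPGK, an ADP-dependent glucokinase, fell by 0.52 (SE 0.05). In the pentose phosphate pathway 4 of 7 genes were called lower and 2 higher, with PGLS, the 6-phosphogluconolactonase, higher by 0.72 (SE 0.06). In the tricarboxylic acid cycle 12 of 18 genes were called lower and 0 higher, with a median of -0.18 and IDH2, the mitochondrial isocitrate dehydrogenase, the largest fall at -0.85 (SE 0.05).

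Of 14 other regulators of HIF, 7 were called higher and 4 lower, with a median of 0.18, beside the same shares of all genes. SIAH2, a ubiquitin ligase acting on prolyl hydroxylases, rose by 0.80 (SE 0.05), and RBX1, a ring subunit of the VHL ligase, fell by 0.98 (SE 0.06). The others called lower were ARNT, the HIF beta subunit, at -0.55, HIF1AN at -0.31 and CUL2 at -0.26, and the others called higher were CREBBP at 0.77, CITED2 at 0.50, ARNT2 at 0.33, VHL at 0.22, EP300 at 0.20 and ELOC at 0.18; these were named after their values were seen. Of 33 other hypoxia response genes, 15 were called lower and 7 higher, with a median of -0.31, where 23.6% and 23.5% of all genes were so called. GYS1, the glycogen synthase, fell by 1.24 (SE 0.05), and BHLHE41, a transcriptional repressor, rose by 1.24 (SE 0.07). The 7 of 33 called higher lay near the share of all genes, so nothing is read from that count.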

How the data were processed

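RNA-seq of 6 EJ libraries (3 shNC, 3 shSTIL) was analysed. Sequencing was on a BGISEQ-500; SOAPnuke filtered the reads, Bowtie2 aligned them to reference transcripts, and RSEM gave estimated counts per gene, which the authors deposited and which were used here for 4 libraries. For all 6 the authors deposited log2 CPM values, made with edgeR; the submitters' processing notes name hg38 and limma, without versions. Recomputed edgeR values (TMM, prior count 2) matched the deposited ones within 2.1e-05. Reads of all libraries were recovered from the log2 CPM, within 0.000492 of the deposited estimates where these exist, and 88.0% to 88.4% of them were whole (tolerance 0.02 reads).

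The main test was limma 3.58.1 (R 4.3.3) with a mean-variance trend on deposited log2 CPM (15953 genes, no block) and Benjamini-Hochberg adjustment, called at 0.01, the study's threshold. Replicate numbers did not pair the libraries. Alternatives included edgeR 4.0.16 and DESeq2 1.42.0 on rounded reads. Scripts were tested on simulated counts, where 52 of 399 calls of the limma fit were false, 51 of them with a mean under 1 log2 CPM. In these counts the limma fit called 10% of the 1.25-fold changes and 50% of the 1.5-fold changes. Members and lists were chosen with earlier results of these data known. Per-library values are printed for LDHA, LDHB, each called member with an absolute log2 fold change of at least 0.5 and a mean of at least 1 log2 CPM, and 6 members named by rule (HIF1A, EGLN1, VEGFA, SLC2A1, PKM, PDK1); of other lists, the called gene with the largest rise and fall at that level, except 1 that is not reported here. Per-length values used the GENCODE principal transcript. Since RSEM shares reads among similar sequences, genes with near copies are uncertain.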

Additional observations from a re-analysis of the deposited data

How the results depend on the processing

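The number of members called was between 28 and 40 under every alternative, the log2 difference of LDHA, which chose the set, lay between -2.26 and -2.15, and 25 of the 38 called members were called in every alternative fit that could be made for them. The lowest count, 28, came from limma's treat against a 1.2-fold change and the highest, 40, from an adjusted p under 0.05; eBayes without the trend called 31, edgeR 39 and DESeq2 37. Leaving out each library in turn gave 31 to 36 members called, and ANKRD37, PDK4, CA12, ALDOC, EGLN1 and PFKP lost their calls most often, fewer samples being part of that alternative. The difference of HIF1A, not called in any fit, ran from -0.0375 to 0.0184 over these and turned positive (0.0184) without shNC replicate 2. With a replicate block 37 members were called, ANKRD37 being lost. Deviations of same-numbered libraries from their group means correlated at -0.12, -0.06 and -0.11 over 11319 genes, so the numbers were not taken as pairs. Depth, at most 16901600 reads a library, limits the members with at most 21 reads in every library (SLC2A3, PDK4, EGLN3, CA9 and CA12), whose fitted differences grow with a smaller prior count and are no measure of size, and also ALDOC and ANKRD37, with 12 to 61 reads. No direction is drawn from SLC2A3 or EGLN3.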
